A study of Homo sapiens with 6 samples.

Results

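The genes compared here were the 8 beta-tubulin isotype genes TUBB, TUBB1, TUBB2A, TUBB2B, TUBB3, TUBB4A, TUBB4B and TUBB6 together with STMN1, the gene of stathmin. They were taken by name from a table of normalized read counts and make up 9 of its 58051 genes. RNA of 6 samples had been sequenced, 3 of A2780-ADR and 3 of A2780. A2780-ADR is an ovarian cancer line resistant to adriamycin, another name of doxorubicin. A2780 is a human ovarian cancer line that is sensitive to doxorubicin. All samples of both lines were untreated and grew in RPMI medium with serum and antibiotics. Resistance was represented by a single line, so every difference below is one between these 2 lines. The sources used here do not say that the samples of a line came from separate cultures. The p-values therefore cover the spread of these samples alone, and that spread may be technical.

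Microtubules are built from dimers of alpha-tubulin and beta-tubulin, and each vertebrate beta-tubulin gene encodes an isotype that differs from the others largely in its acidic carboxy-terminal tail. TUBB is the common class I isotype of dividing cells, TUBB4B (class IVb) and TUBB6 (class V) are widespread, TUBB4A (class IVa), TUBB2A, TUBB2B (both class II) and TUBB3 (class III) are best known from neurons, and TUBB1 (class VI) from platelets and megakaryocytes. Beta-tubulin carries the binding site of paclitaxel and of the vinca alkaloids. Stathmin binds tubulin dimers, holds them back from polymerization and promotes microtubule shrinkage until it is phosphorylated in mitosis.

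Between 29653423 and 30513366 reads fell in genes in the A2780-ADR samples, against 27775745 to 29078438 in the A2780 samples. Replicates of a line differed by more than sampling noise, with a chi-square per degree of freedom of 2.38 to 9.47 over 13002 genes. This does not tell separate cultures from separate libraries of the same culture. All 6 were counted as separate samples. The labelled origin was set against 13 ovarian and epithelial markers, of which 7 were tested. KRT8 averaged 9071 normalized counts in A2780-ADR and 79.1 in A2780, and KRT18 averaged 4072 in A2780-ADR and 130 in A2780. FOLR1, a folate receptor, averaged 439 in A2780-ADR and 16.2 in A2780. These 3 were the markers called higher. PAX8 averaged 15.3 in A2780-ADR and 1.41 in A2780, MUC16 averaged 3.49 in A2780-ADR and 0.340 in A2780, and CDH1 averaged 4.14 in A2780-ADR and 4.79 in A2780. WT1 was also low, with 6.41 in A2780-ADR and 0.340 in A2780, and MUC1 averaged 343 in A2780-ADR and 449 in A2780. EPCAM averaged 75.3 in A2780-ADR and 54.6 in A2780, and KRT19 averaged 32.6 in A2780-ADR and 27.7 in A2780. KRT7 was at 0 in every sample. The summed level of the list was 108331 to 120409 normalized counts in A2780-ADR and 51319.8 to 52215.1 in A2780. Most of it was VIM, a mesenchymal marker, with 100068 in A2780-ADR and 50860.6 in A2780. In A2780 VIM was nearly all of the sum, while in A2780-ADR KRT8 and KRT18 added to it.

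All 8 isotypes gave reads, but 3 of them, TUBB, TUBB4B and TUBB6, held nearly all. The share of an isotype was its reads divided by the reads of all 8 in the same sample, 51378 to 57444 reads in A2780-ADR and 57137 to 60310 in A2780, and does not depend on how libraries were scaled. TUBB made up 68.7%, 68.6% and 69.7% in the A2780-ADR samples, against 70.2%, 70.2% and 70.5% in the A2780 samples. TUBB4B made up 21.5%, 21.3% and 20.5% in A2780-ADR, against 20.5%, 20.9% and 20.6% in A2780. TUBB6 made up 8.27%, 8.48% and 8.30% in A2780-ADR, against 7.88%, 7.42% and 7.51% in A2780. The shares of TUBB and TUBB6 did not overlap between the lines, while those of TUBB4B did. These shares are of reads and are not corrected for gene length. Per kilobase of exon, TUBB averaged 61.8% in A2780-ADR and 63.3% in A2780, and TUBB4B averaged 30.1% in A2780-ADR and 29.6% in A2780. TUBB6 then averaged 6.11% in A2780-ADR and 5.59% in A2780. Since these are bulk RNA values, fewer cells with a transcript and less of it per cell cannot be told apart.

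The minor isotypes differed more in relative terms. TUBB4A held 0.797%, 0.846% and 0.800% of beta-tubulin reads in A2780-ADR, against 1.10%, 1.29% and 1.17% in A2780. TUBB2A held 0.695%, 0.710% and 0.646% in A2780-ADR, against 0.122%, 0.0796% and 0.0980% in A2780. TUBB2B held 0%, 0.00537% and 0% in A2780-ADR, against 0.172%, 0.114% and 0.112% in A2780. None of these 3 overlapped between the lines. A count of 0, taken to allow up to 3 reads, allows a TUBB2B share of up to 0.00522% in A2780-ADR replicate 1 and 0.00584% in replicate 3, and the 95% Wilson intervals reach up to 0.00669% and 0.00748%, in counting error only.

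TUBB1 and TUBB3 had few counted reads, and for TUBB3 the count may be too low because of an overlapping gene described below. TUBB1 held 0.0418%, 0.0304% and 0.0642% of beta-tubulin reads in A2780-ADR, against 0.0371%, 0.0199% and 0.0123% in A2780, and the lines overlapped. TUBB3 held 0.0174%, 0.0376% and 0.0234% in A2780-ADR, against 0.00338%, 0.0133% and 0.0140% in A2780. For TUBB3 the closest samples overlapped within counting error, the 95% Wilson interval of A2780-ADR replicate 1 running from 0.00946% to 0.0320% and that of A2780 replicate 3 from 0.00710% to 0.0276%. Summed over samples there were 43 TUBB3 reads in A2780-ADR and 18 in A2780, a ratio of normalized levels of 2.22 with a 95% counting interval of 1.25 to 4.09. Such intervals cover counting error only.

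The mean share of TUBB was 69.0% ± 0.588 in A2780-ADR and 70.3% ± 0.163 in A2780 (SD, n = 3 each), a difference of -1.30 percentage points (SE 0.352). TUBB6 differed by 0.750 points (SE 0.155), TUBB2A by 0.584 points (SE 0.0228), TUBB4A by -0.372 points (SE 0.0574), TUBB2B by -0.131 points (SE 0.0198) and TUBB3 by 0.0159 points (SE 0.00689). Without A2780-ADR replicate 2 the TUBB3 difference was 0.0102 points. With reads taken per kilobase of exon, the TUBB2A difference was 1.02 points. Each of these 6 isotypes gave p = 0.1 in the two-sided exact permutation test, which is the smallest p that 3 samples against 3 allow, and 0.133 after Benjamini-Hochberg adjustment over the 8 isotypes. TUBB4B, with 21.1% ± 0.516 in A2780-ADR and 20.7% ± 0.200 in A2780, gave an exact p of 0.3, and TUBB1 an exact p of 0.2, adjusted to 0.3 and 0.229. The shares of a sample sum to the whole and so are not independent of each other.

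**Figure D1:**
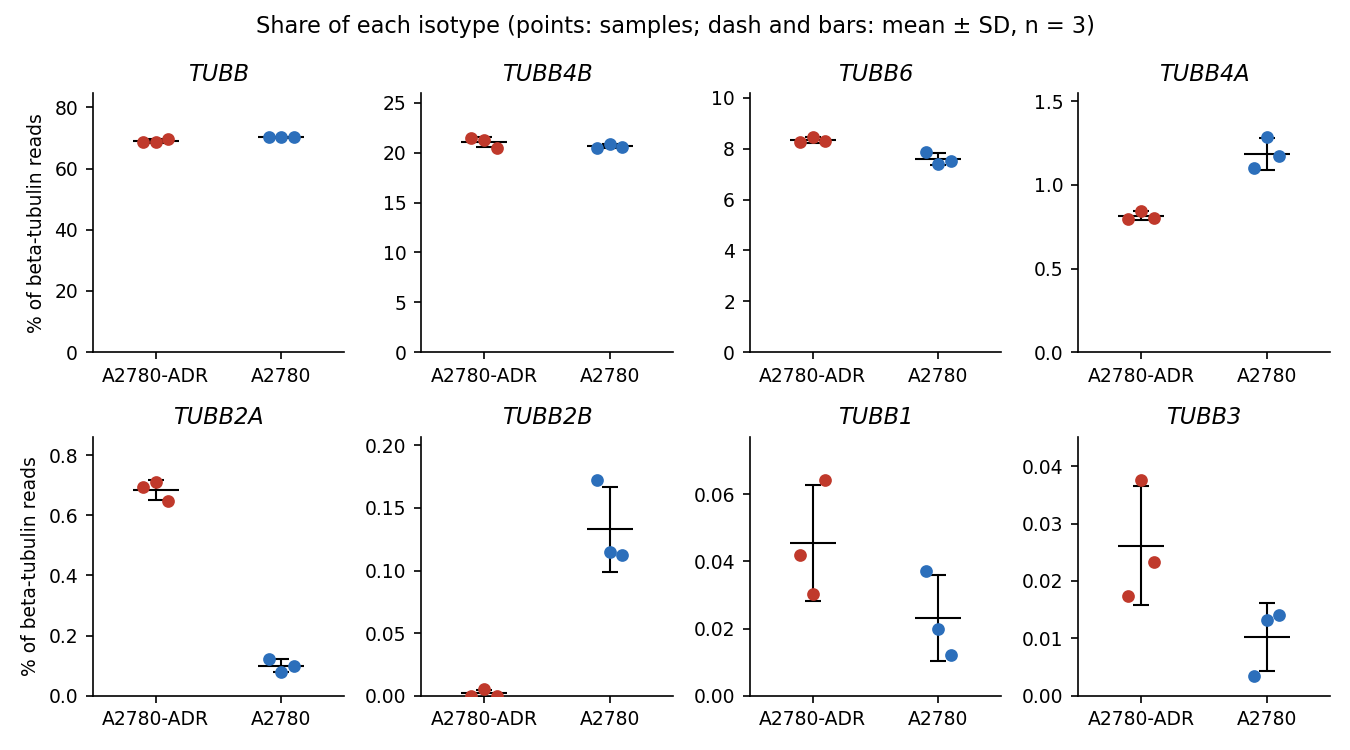
Share of each of the 8 beta-tubulin isotypes in beta-tubulin reads (vertical axes in percent, starting at 0, with a scale for each isotype) for A2780-ADR (left, red) and A2780 (right, blue), with points for samples and dashes with bars for the mean ± SD of 3. TUBB stayed near 69.0% in A2780-ADR and 70.3% in A2780, TUBB2A averaged 0.684% in A2780-ADR and 0.0997% in A2780, and TUBB2B averaged 0.00179% in A2780-ADR and 0.133% in A2780.

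The 8 isotypes were also summed, which separates a change of the mix from one of the sum. They came to 1883, 1865 and 1733 reads per 1000000 reads in genes in A2780-ADR, against 2037, 2077 and 2057 in A2780, and the lines did not overlap. The means were 1827 ± 81.9 in A2780-ADR and 2057 ± 20.1 in A2780 (SD, n = 3 each), a difference of -230 (SE 48.7), or -11.2%. The two-sided exact permutation test gave p = 0.1, the smallest it can give.

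Genes averaging 10 or more normalized counts, 17005 in all, were tested with limma on log2(normalized count + 1). Of them 27.6% were called, which took a fold above 2 as well as an adjusted p (Benjamini-Hochberg) under 0.05. At an adjusted p under 0.05 and any fold the share was 71.8% (35.4% higher and 36.4% lower), and for 74.6% the values of the lines did not overlap. Of the 9 genes described here 8 were tested, TUBB3 lying just under the minimum. TUBB2A was called higher (13.2% of all tested genes were) and TUBB2B was called lower (14.4% were). At any fold, 6 of the 8 had an adjusted p under 0.05, TUBB2A and STMN1 on the higher side and TUBB, TUBB4A, TUBB4B and TUBB2B on the lower side. Both counts lay near these background shares. The same shares are the background for the gene counts given below.

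**Figure D2:**
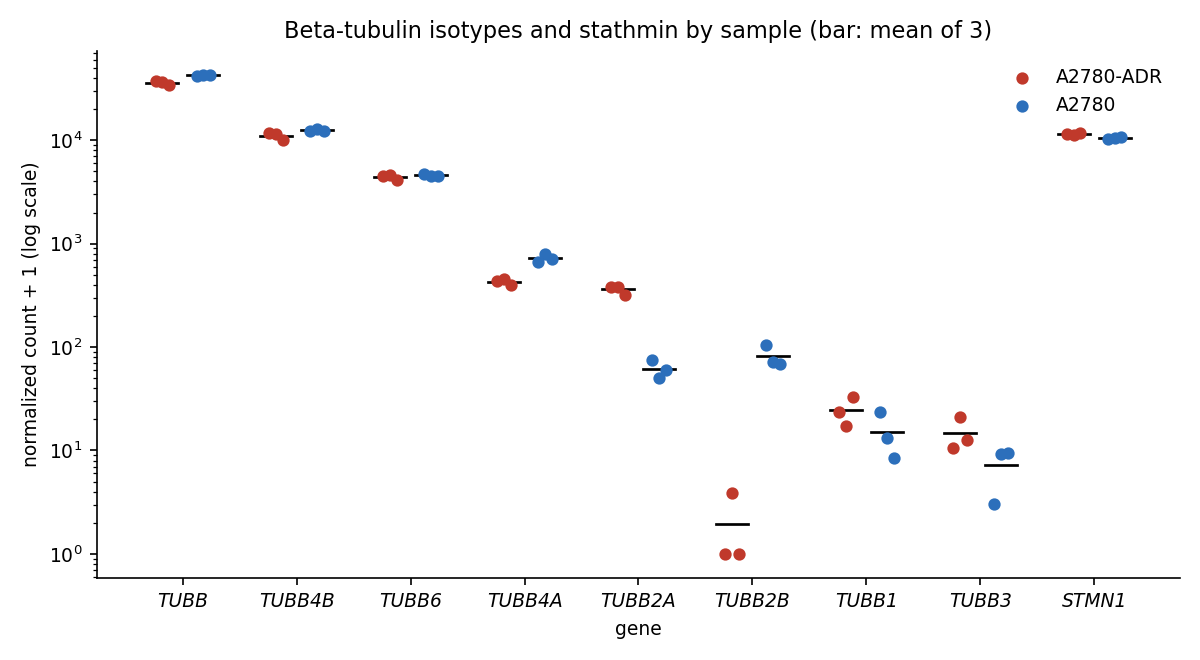
Normalized count + 1 of each gene (vertical log axis) in the 3 A2780-ADR samples (red, left of each pair) and the 3 A2780 samples (blue, right of each pair), with a bar at the mean of 3. TUBB2A averaged 360 normalized counts in A2780-ADR and 60.4 in A2780, TUBB2B averaged 0.963 in A2780-ADR and 80.5 in A2780, and the more abundant isotypes and STMN1 lay close together in both lines.

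TUBB, on chromosome 6 (GRCh38 chr6:30720201-30725426, plus strand), was the most abundant isotype in both lines. It had 37321.5, 36935.5 and 34439.5 normalized counts in A2780-ADR, against 42286.6, 43107.2 and 42496.6 in A2780. All A2780-ADR samples lay under all A2780 samples. The log2 fold change was -0.24 (SE 0.044) with a limma adjusted p of 0.000459, short of a 2-fold change.

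TUBB4B, on chromosome 9 (chr9:137241213-137243707, plus strand), was the isotype with the next most reads. It had 11672.5, 11475.6 and 10143.7 normalized counts in A2780-ADR, against 12354.5, 12834.8 and 12435.5 in A2780. The lines did not overlap, with a log2 fold change of -0.18 (SE 0.054) and a limma adjusted p of 0.0105. Without A2780 replicate 2 the adjusted p was 0.0571, and without A2780-ADR replicate 3 the log2 fold change was -0.12 (adjusted p = 0.0171).

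TUBB6, on chromosome 18 (chr18:12307669-12344320, plus strand), encodes the class V isotype. It had 4496, 4567 and 4105 normalized counts in A2780-ADR, against 4746, 4556 and 4530 in A2780. The lines overlapped, and the log2 fold change of -0.07 (SE 0.050) had a limma adjusted p of 0.216. Without A2780-ADR replicate 3 it was -0.02 (adjusted p = 0.600). Per 1000 TUBB reads, however, there were 120.5, 124 and 119 TUBB6 reads in A2780-ADR, against 112, 106 and 107 in A2780, with no overlap.

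TUBB4A, on chromosome 19 (chr19:6494319-6502848, minus strand), encodes the class IVa isotype. It had 433, 456 and 396 normalized counts in A2780-ADR, against 662, 791 and 706 in A2780. The lines did not overlap. The log2 fold change was -0.75 (SE 0.085) with a limma adjusted p of 7.34e-06, a ratio of 0.595 that did not reach 2-fold.

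TUBB2A and TUBB2B moved in opposite directions. They are neighbours on chromosome 6, TUBB2A at chr6:3153669-3157526 and TUBB2B at chr6:3224261-3231730, both on the minus strand. TUBB2A had 377, 382 and 320 normalized counts in A2780-ADR, against 73.2, 48.9 and 59.1 in A2780. The lowest A2780-ADR sample was thus well over the highest A2780 sample, with a log2 fold change of 2.57 (SE 0.153), a limma adjusted p of 1.93e-08 and a ratio of the means of 5.96. TUBB2B had 0, 2.89 and 0 normalized counts in A2780-ADR, against 103.8, 70.3 and 67.6 in A2780. In reads this was 3 over all A2780-ADR samples and 235 over all A2780 samples. The ratio of normalized levels, A2780 over A2780-ADR, was 84.3 with a counting interval of 28.5 to 412 at 95%. The limma adjusted p of TUBB2B was 5.77e-07, and its fitted log2 fold change of -5.67 depends on the 1 added to each value.

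The 2 genes are near copies, which matters for how reads were assigned. Their coding sequences, both of 1335 bases, were 98.2% identical, with 24 substitutions and a longest identical run of 725 bases. TUBB, by contrast, was 84.6% identical to TUBB2A. Of all stretches of 100 bases in the main transcript, 43.6% of those of TUBB2A and 53.8% of those of TUBB2B were in no other gene of the annotation. The stretch below holds coding bases 141 to 240, the 100 with most differences, and shows where reads tell the 2 genes apart. Capitals mark the 13 bases that differ, and the sequences are reference transcripts of GENCODE 29.
TUBB2A: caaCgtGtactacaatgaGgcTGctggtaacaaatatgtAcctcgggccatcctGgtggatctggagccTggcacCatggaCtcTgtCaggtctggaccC
TUBB2B: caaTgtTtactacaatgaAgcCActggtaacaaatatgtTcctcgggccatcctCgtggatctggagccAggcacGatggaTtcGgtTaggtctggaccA

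Reads from the identical runs can be assigned to either gene or left out of both, and which was done is not stated in the sources used here. TUBB2A and TUBB2B were therefore also summed. Reads left out of both genes would be missing from the sum too, which would make the level and share of the pair too low. The sum was 377, 385 and 320 normalized counts in A2780-ADR, against 177, 119 and 127 in A2780. It averaged 361 ± 35.9 in A2780-ADR and 141 ± 31.5 in A2780 (SD, n = 3 each), a difference of 220 (SE 27.6) and a ratio of 2.56. The lines did not overlap, and the two-sided exact permutation test gave p = 0.1, the smallest possible. TUBB2A made up 100%, 99.2% and 100% of the reads of the pair in A2780-ADR, against 41.4%, 41.0% and 46.7% in A2780. In A2780 the class II reads were thus divided between both genes, while nearly all class II reads of A2780-ADR were assigned to TUBB2A.

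The start regions of the pair are shown because the genes moved apart while lying close together. The sequences below are the 150 bases before the RefSeq start on the minus strand (GRCh38.p14), chr6:3157545-3157694 for TUBB2A and chr6:3227654-3227803 for TUBB2B. The GC box was searched as GGGCGG on either strand. The TATA box was searched likewise as TATAAA. For the CCAAT box the 5 letters of its name were searched on either strand. Capitals mark the matches. In the 250 bases before the start, TUBB2A held 5 GC boxes, 1 TATA box and no CCAAT box, and TUBB2B held 1 GC box, no TATA box and 1 CCAAT box. Of all 35116 such windows in RefSeq, 42.6% hold a GC box, 10.7% a TATA box and 32.0% a CCAAT box. In the printed stretches no match overlapped another.
TUBB2A: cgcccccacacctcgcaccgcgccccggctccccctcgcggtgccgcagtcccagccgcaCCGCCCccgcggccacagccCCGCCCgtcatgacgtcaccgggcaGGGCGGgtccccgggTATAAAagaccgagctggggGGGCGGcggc
TUBB2B: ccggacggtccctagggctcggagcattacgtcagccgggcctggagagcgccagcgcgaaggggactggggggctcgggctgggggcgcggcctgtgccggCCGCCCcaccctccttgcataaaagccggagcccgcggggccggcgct

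Genes around the pair were described for the same reason. Besides TUBB2A and TUBB2B, 15 tested genes had their lower coordinate within 500 kb of either, and of these 5 were called higher, 1 was called lower and 9 were not called, with a median log2 fold change of 0.39 against -0.01 over all tested genes. LINC02525, a long non-coding RNA gene between TUBB2A and TUBB2B, averaged 125 normalized counts in A2780-ADR and 0.691 in A2780. SERPINB9, a granzyme B inhibitor, averaged 10767.3 in A2780-ADR and 195 in A2780, a log2 fold change of 5.79 (limma adjusted p = 4.43e-13). The gene called lower, PXDC1, was at 0 in all A2780-ADR samples and averaged 60.1 in A2780, and is named after its values were seen. Genes with large and with small differences therefore lay side by side.

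**Figure D3:**
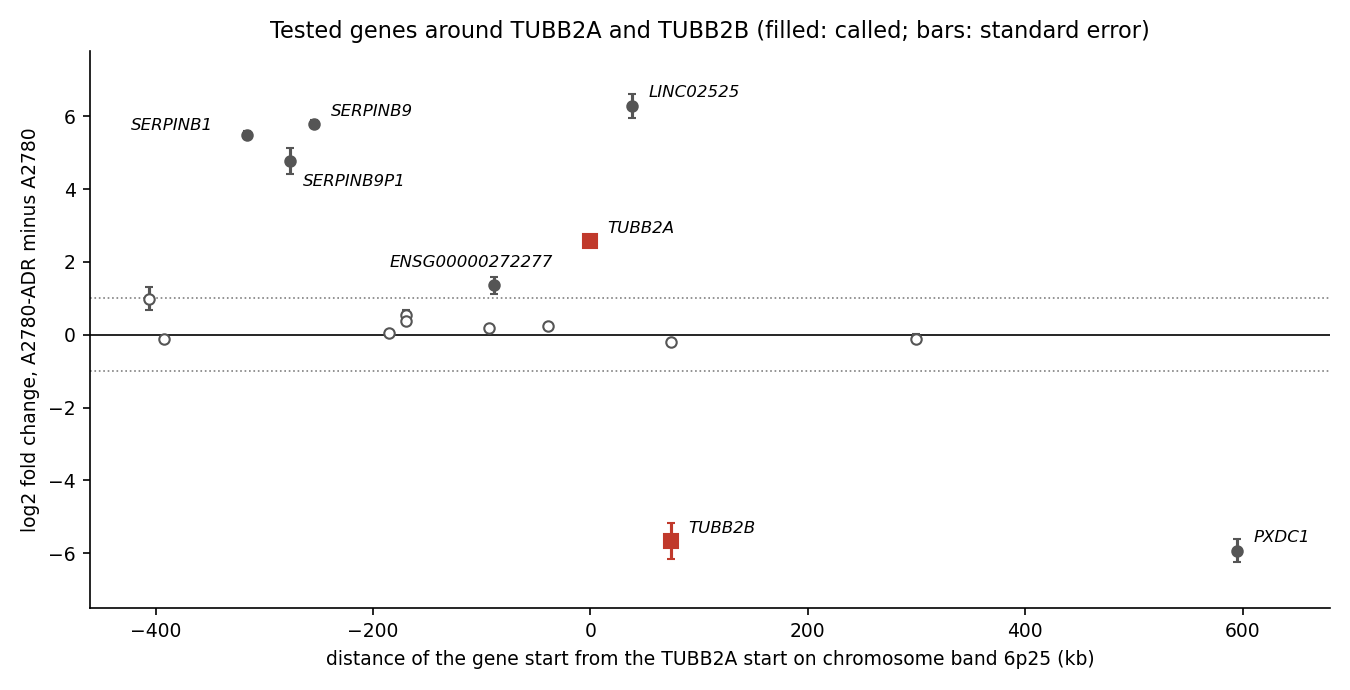
Log2 fold change of A2780-ADR over A2780 (vertical axis, bars are the standard error) of tested genes around TUBB2A and TUBB2B (red squares), against the distance of each gene's start from that of TUBB2A in kb. Filled symbols are called genes. TUBB2A at 2.57 and TUBB2B at -5.67 stand among 5 genes called higher, 1 called lower and 9 not called (open circles).

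TUBB1, on chromosome 20 (chr20:59019254-59026654, plus strand), and TUBB3, on chromosome 16 (chr16:89921392-89938761, plus strand), had few counted reads. TUBB1 had 22.7, 16.4 and 31.8 normalized counts in A2780-ADR, against 22.4, 12.2 and 7.39 in A2780. The lines overlapped, and the log2 fold change of 0.79 (SE 0.379) had a limma adjusted p of 0.0794. Single samples moved this value either way. The adjusted p was 0.0487 without A2780-ADR replicate 2 and 0.0134 without A2780 replicate 1 (log2 fold change 1.18), but 0.299 without A2780 replicate 3 (log2 fold change 0.44) and 0.261 without A2780-ADR replicate 3 (log2 fold change 0.56). TUBB1 overlaps ATP5F1E on the other strand, a gene with 7611 to 8261 normalized counts in A2780-ADR and 4400 to 4699 in A2780, and 67.9% of the TUBB1 stretches of 100 bases were in no other gene. The part of ATP5F1E reads in the TUBB1 values was not tested.

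TUBB3 had 9.46, 20.2 and 11.5 normalized counts in A2780-ADR, against 2.03, 8.15 and 8.44 in A2780. The A2780-ADR samples were all above the A2780 samples, on 43 reads in A2780-ADR and 18 in A2780. In a fit without the minimum of 10, the log2 fold change was 1.14 (SE 0.507) with a limma adjusted p of 0.106. Single samples moved this value either way. Without A2780 replicate 1 the log2 fold change was 0.60 (adjusted p = 0.172), while the adjusted p was 0.0435 without A2780-ADR replicate 1, 0.0355 without A2780 replicate 2, 0.0327 without A2780 replicate 3 and 0.0437 after scaling to equal totals. In the annotation a readthrough gene on the same strand, ENSG00000198211, shares 1584 of the 1769 bases of the main TUBB3 transcript and 95.8% of its coding bases. That gene was at 0 in every sample. Reads in shared bases cannot be told apart between the 2 genes, so the level of TUBB3 is uncertain. If such reads were left out of both genes, the TUBB3 values and shares given here are too low.

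Levels were also ordered per kilobase of exon. In A2780-ADR the order was TUBB (10787 normalized counts per kilobase), TUBB4B (5257), TUBB6 (1066), TUBB2A (208), TUBB4A (124), TUBB1 (6.75), TUBB3 (3.10) and TUBB2B (0.439). In A2780 it was TUBB (12691), TUBB4B (5941), TUBB6 (1120), TUBB4A (208), TUBB2B (36.7), TUBB2A (35.0), TUBB1 (4.004) and TUBB3 (1.40). TUBB2A thus stood above TUBB4A in A2780-ADR, with 185 to 221 against 114 to 131 per kilobase. In A2780 TUBB2B and TUBB2A did not differ beyond their spread, with 30.8 to 47.3 and 28.3 to 42.4. The order of TUBB1 and TUBB3 was not settled. Over all exon bases TUBB1 lay above TUBB3 with no overlap, at 4.68 to 9.08 against 2.14 to 4.57 in A2780-ADR and 2.11 to 6.40 against 0.459 to 1.91 in A2780. In an alternative chosen after seeing the data, the same reads were divided by the exon bases not shared with another gene on the same strand. This changed the length alone and not which reads were counted. The shares of beta-tubulin reads per kilobase then overlapped in both lines. They were 0.0262% to 0.0555% for TUBB1 against 0.0184% to 0.0397% for TUBB3 in A2780-ADR, and 0.0106% to 0.0322% against 0.00360% to 0.0149% in A2780.

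The first 4 codons are the part of a tubulin that is read by the cell's autoregulation of tubulin mRNA, in which TTC5 recognizes the nascent amino terminus and SCAPER recruits the mRNA decay machinery. They are shown because this is the stretch on which that control acts, with capitals at bases that differ from TUBB.
TUBB: atgagggaaatc
TUBB4B: atgagggaaatc
TUBB3: atgagggaGatc
TUBB6: atgagggaGatc
TUBB4A: atgCgggaGatc
TUBB2A: atgCgCgaGatc
TUBB2B: atgCgTgaGatc
TUBB1: atgCgTgaaatT

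TUBB and TUBB4B were identical in these 12 bases, TUBB3 and TUBB6 differed from them at 1 base, TUBB4A at 2, and TUBB2A, TUBB2B and TUBB1 at 3. Every one of these differences is synonymous, so all isotypes encode the same amino acids in this stretch. Of the 3 autoregulation genes, SCAPER was called lower, with 607, 676 and 667 normalized counts in A2780-ADR, against 1321, 1367 and 1330 in A2780, a log2 fold change of -1.04 (limma adjusted p = 1.83e-08). TTC5 had a log2 fold change of 0.40 (adjusted p = 0.000469) and CNOT11, which binds SCAPER, of 0.63 (adjusted p = 4.92e-07), and neither reached 2-fold.

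The tails of beta-tubulins carry the glutamates to which tubulin ligases add further glutamates. The last 60 coding bases before the stop codon are shown for the 5 isotypes with most reads in A2780-ADR, with the glutamate codons GAA and GAG in capitals.
TUBB: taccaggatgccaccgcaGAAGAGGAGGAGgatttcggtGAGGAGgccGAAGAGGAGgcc
TUBB4B: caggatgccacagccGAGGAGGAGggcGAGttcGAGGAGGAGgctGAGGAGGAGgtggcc
TUBB6: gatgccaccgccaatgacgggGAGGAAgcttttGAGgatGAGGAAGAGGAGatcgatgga
TUBB4A: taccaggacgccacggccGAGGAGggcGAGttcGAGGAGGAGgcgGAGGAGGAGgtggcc
TUBB2A: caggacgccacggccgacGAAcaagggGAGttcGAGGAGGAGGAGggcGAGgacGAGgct

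These stretches held 9 glutamate codons in TUBB, 10 in TUBB4B, 7 in TUBB6, 9 in TUBB4A and 8 in TUBB2A. Of 28 genes of enzymes that modify tubulin, 21 were tested, with 1 called higher and 4 lower (23.8%, against 27.6% of all tested genes). The median log2 fold change of these enzymes was -0.50. VASH2, a carboxypeptidase that removes the terminal tyrosine of alpha-tubulin, averaged 656 ± 46.8 in A2780-ADR and 297 ± 15.9 in A2780 (log2 fold change 1.14). VASH1, its paralogue, averaged 292 ± 16.6 in A2780-ADR and 1019 ± 67.3 in A2780 (log2 fold change -1.80). The glutamate ligases TTLL7 and TTLL6 were called lower, with a mean of 32.5 for TTLL7 in A2780-ADR and 137 in A2780, and a mean of 3.50 for TTLL6 in A2780-ADR and 21.98 in A2780. At an adjusted p under 0.05 and any fold, 4 of the 21 were higher and 14 were lower. Over all tested genes 35.4% were higher and 36.4% lower.

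STMN1, on chromosome 1 (chr1:25884181-25906991, minus strand), was abundant in both lines. It had 11440.8, 11328.2 and 11664.3 normalized counts in A2780-ADR, against 10232.4, 10556.3 and 10858.5 in A2780. The A2780-ADR samples all lay above the A2780 samples. The log2 fold change was 0.12 (SE 0.041) with a limma adjusted p of 0.0179, far short of 2-fold. The adjusted p was 0.0529 without A2780-ADR replicate 1, 0.0667 without A2780 replicate 1 and 0.0650 without A2780 replicate 2.

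Set against beta-tubulin alone, there were 21.1, 21.0 and 23.6 STMN1 reads per 100 beta-tubulin reads in A2780-ADR, against 17.0, 17.2 and 18.0 in A2780. The means were 21.9 ± 1.47 in A2780-ADR and 17.4 ± 0.541 in A2780 (SD, n = 3 each), with no overlap. Alpha-tubulin, the other part of the dimer, summed to 17030 to 18047 normalized counts in A2780-ADR and 13022 to 13565 in A2780. This relative difference was larger than that of STMN1, so against the alpha-tubulin sum STMN1 was not higher in A2780-ADR. Most of the difference in that sum was TUBA1A, which averaged 5510 in A2780-ADR and 1443 in A2780. TUBA1B averaged 8353 in A2780-ADR and 8629 in A2780. How reads were assigned among the alpha-tubulins was not tested. STMN1 is a gene of dividing cells, and 25 proliferation genes were read beside it. Of these, RRM2, a subunit of ribonucleotide reductase, was called higher with a log2 fold change of 1.19, and none was called lower. Their summed level was 161359 to 173191 normalized counts in A2780-ADR and 159307 to 161747 in A2780, with a median log2 fold change of 0.04. The part of proliferation in the STMN1 values was not tested.

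Of the other stathmins, STMN3 had 361, 359 and 332 normalized counts in A2780-ADR, against 436, 463 and 396 in A2780, a log2 fold change of -0.30 (limma adjusted p = 0.00815). STMN2 was at 0 in all samples, and STMN4 had 0.946, 3.85 and 0 in A2780-ADR and 0 in A2780. Of 18 genes of kinases known to phosphorylate stathmin or related to such kinases, 16 were tested. Of these, 2 were called higher and 1 lower (18.75%, against 27.6% of all tested genes), with a median log2 fold change of -0.15. CAMK2D, a subunit of calcium/calmodulin-dependent kinase II, averaged 1116 in A2780-ADR and 227 in A2780 (log2 fold change 2.30). UHMK1, a kinase named for its interaction with stathmin, averaged 4384 in A2780-ADR and 1979 in A2780 (log2 fold change 1.15). CAMK2B averaged 37.3 in A2780-ADR and 136 in A2780 (log2 fold change -1.84). CDK1, the mitotic kinase, had a log2 fold change of -0.57 and was not called.

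Alpha-tubulin, the partner of beta-tubulin in the dimer, was summed to 17030 to 18047 normalized counts in A2780-ADR and 13022 to 13565 in A2780. Of 9 genes 5 were tested, 2 were called higher and none lower (40%, against 27.6% of all tested genes). The median log2 fold change of the tested alpha-tubulins was 0.19. TUBA1A, the alpha isotype best known from developing neurons, had 5439, 5440 and 5652 normalized counts in A2780-ADR, against 1511, 1467 and 1352 in A2780, a log2 fold change of 1.93 (SE 0.052, limma adjusted p = 1.79e-11). TUBA3D averaged 55.3 in A2780-ADR and 23.3 in A2780 (log2 fold change 1.22). TUBA1B, the one with most reads, had 8627, 8640 and 7791 in A2780-ADR, against 8702, 8809 and 8375 in A2780, a log2 fold change of -0.05 (limma adjusted p = 0.398). The alpha-tubulin sum of every A2780-ADR sample thus lay above, and the beta-tubulin sum below, those of every A2780 sample.

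Among 15 other tubulins and components of the gamma-tubulin ring, which nucleates microtubules, 2 were called higher and none lower. This was 13.3%, against 27.6% of all tested genes, with a median log2 fold change of 0.23. TUBG2, a gamma-tubulin, averaged 1486 in A2780-ADR and 695 in A2780 (log2 fold change 1.10). TUBB8B, a further beta-tubulin, averaged 171 ± 6.81 in A2780-ADR and 44.7 ± 4.52 in A2780 (log2 fold change 1.91). TUBB8, the beta-tubulin of oocytes, averaged 59.6 in A2780-ADR and 57.3 in A2780. The table also held 35 beta-tubulin pseudogenes, 16 of them with reads. TUBBP5 had 543, 520 and 518 normalized counts in A2780-ADR, against 94.6, 101 and 88.7 in A2780, a log2 fold change of 2.47 (limma adjusted p = 4.10e-10). With all pseudogenes in the denominator, TUBB made up 68.1% in A2780-ADR and 70.1% in A2780.

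Newly made tubulin is folded by the chaperonin TRiC, prefoldin and the tubulin cofactors. Of 22 such genes 21 were in the table by name and tested. Of these, 2 were called higher and 1 lower (14.3%, against 27.6% of all tested genes), with a median log2 fold change of 0.21. TCP1, a TRiC subunit, averaged 14786 in A2780-ADR and 4943 in A2780 (log2 fold change 1.58), and CCT4, another, averaged 21394 in A2780-ADR and 10667 in A2780 (log2 fold change 1.004). CCT6B, a variant subunit of testis, averaged 8.29 in A2780-ADR and 21.3 in A2780 (log2 fold change -1.20). At an adjusted p under 0.05 and any fold, 13 of the 21 were higher and 3 were lower. Over all tested genes 35.4% were higher and 36.4% lower. The summed level of the folding genes was 200976 to 214492 normalized counts in A2780-ADR and 144410 to 147531 in A2780.

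**Figure D4:**
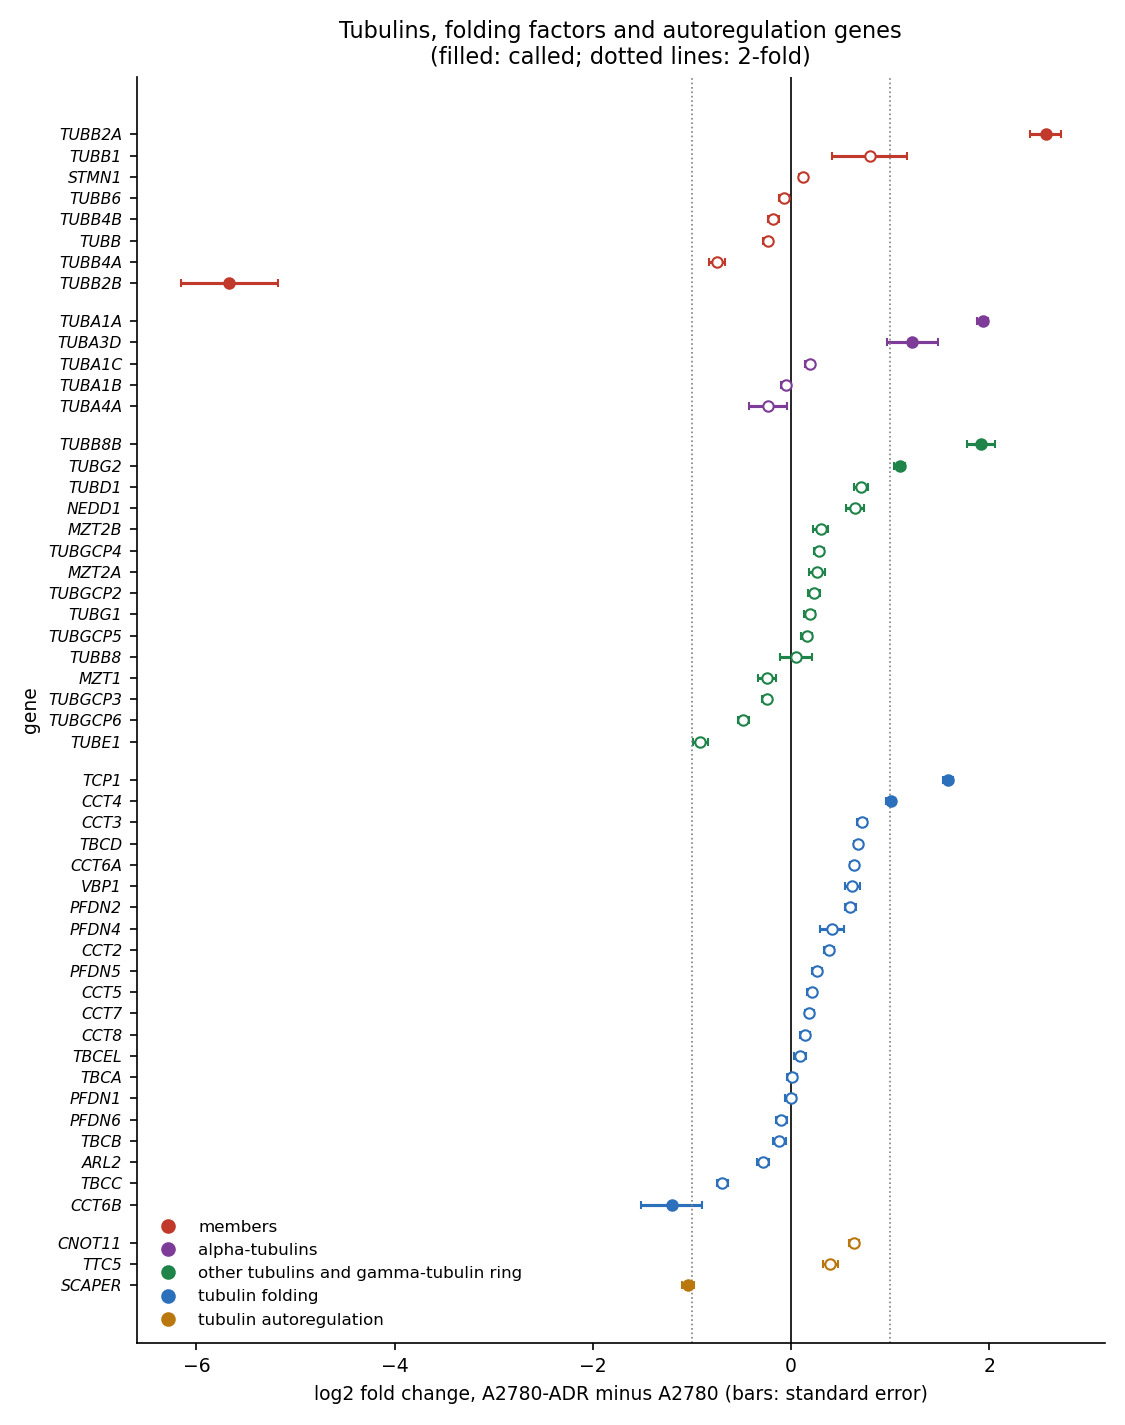
Log2 fold change of A2780-ADR over A2780 (horizontal axis, bars are the standard error) of the tested beta-tubulin isotypes and STMN1 (red), alpha-tubulins (purple), other tubulins and the gamma-tubulin ring (green), folding genes (blue) and autoregulation genes (ochre). Filled symbols are called genes, dotted lines mark 2-fold, and TUBB2B at -5.67, TUBB2A at 2.57 and TUBA1A at 1.93 are the extremes among beta-tubulins and alpha-tubulins, with TUBB8B at 1.91, TUBA3D at 1.22 and TUBG2 at 1.10 also past 2-fold.

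Of 26 structural microtubule-associated proteins, which bind the microtubule lattice, 23 were tested, 2 were called higher and 6 lower (34.8% called, against 27.6% of all tested genes), with a median log2 fold change of -0.29. MAP7D2, a kinesin-recruiting protein, had 4.73, 1.93 and 3.85 normalized counts in A2780-ADR, against 1821, 1792 and 1822 in A2780, a log2 fold change of -8.71 (limma adjusted p = 9.33e-12). DCLK1, of the doublecortin family, averaged 18.1 in A2780-ADR and 147 in A2780 (log2 fold change -3.05), and MAP6, which stabilizes microtubules, averaged 2.53 in A2780-ADR and 18.1 in A2780 (log2 fold change -2.91). MAP1LC3A, better known from autophagy, averaged 257 in A2780-ADR and 97.0 in A2780 (log2 fold change 1.41). MAP9 averaged 606 in A2780-ADR and 254 in A2780 (log2 fold change 1.25). At an adjusted p under 0.05 and any fold, 3 of the 23 were higher and 15 were lower, where 35.4% of all tested genes were higher and 36.4% lower.

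All 22 plus-end binding genes were tested, with 5 called higher and 1 lower (27.3%, against 27.6% of all tested genes). The median log2 fold change of these 22 was 0.02. NAV1, a neuron navigator, averaged 1297 in A2780-ADR and 112 in A2780 (log2 fold change 3.54), NAV2 averaged 18.2 in A2780-ADR and 3.43 in A2780 (log2 fold change 2.14), and SLAIN1 averaged 82.4 in A2780-ADR and 26.8 in A2780 (log2 fold change 1.58). TACC2 averaged 1010 in A2780-ADR and 2519 in A2780 (log2 fold change -1.32).

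Of 13 severing and depolymerizing genes 12 were tested, 2 were called higher and 2 lower (33.3%, against 27.6% of all tested genes). The median log2 fold change of these 12 was 0.10. KATNA1, the catalytic subunit of katanin, averaged 1169 in A2780-ADR and 483 in A2780 (log2 fold change 1.28). FIGN averaged 2853 in A2780-ADR and 1290 in A2780 (log2 fold change 1.14). FIGNL2 had 0, 0 and 0.962 normalized counts in A2780-ADR, against 24.4, 41.8 and 33.8 in A2780.

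Markers of cells in which minor isotypes are best known were read beside TUBB2A, TUBB2B, TUBB3 and TUBB1. Of 19 neuronal markers 10 were tested, 1 was called higher and 4 lower (50%, against 27.6% of all tested genes). ELAVL4, STMN2 and DCX of this list were at 0 in all samples. The summed level of the neuronal markers was 3195 to 3669 normalized counts in A2780-ADR and 5599 to 6032 in A2780. ELAVL3, a neuronal RNA-binding protein, had 2.84, 6.74 and 9.62 in A2780-ADR, against 306, 328 and 287 in A2780, and GAP43, a growth-cone protein, had 29.3, 24.1 and 27.9 in A2780-ADR, against 0, 1.02 and 0 in A2780. Of 12 leukocyte, platelet and endothelial markers 2 were tested and 1 of these was called higher, and CD3E was at 0 in all samples. Their summed level was 445 to 504 in A2780-ADR and 409 to 426 in A2780, nearly all of it ITGA2B, an integrin also known from platelets. The part of these markers in the isotype values was not tested.

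The genes most like TUBB2B, TUBB2A and STMN1 over the 6 samples were found by Pearson correlation on the log2 scale. For TUBB2B they were ENSG00000234740, AMER1 and SPATA17, with r of 0.9997, 0.999 and 0.999. For TUBB2A they were NARF, EMX1 and LINC02870, with r of 0.9996, 0.999 and 0.999. For STMN1 they were TOMM70, WDR75 and SNX3, with r of 0.9996, 0.999 and 0.998. All of these points share the split between the 2 lines, and of 17004 genes compared 3108 had r above 0.95 with TUBB2B, 3242 with TUBB2A and 1012 with STMN1.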

How the data were processed

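RNA of 3 A2780-ADR and 3 A2780 samples was sequenced from stranded mRNA libraries. The deposited signal values are read counts per gene that the authors normalized with DESeq. Tools named in the submitters' processing notes are STAR and HTSeq besides DESeq, with the build GRCh38. For versions, annotation release and strand setting nothing was given in the sources used here, so reads of overlapping antisense genes could be shared. The value of 1 read was recovered from the steps between low values, and 100% of values were whole within 0.01.

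Genes averaging 10 or more normalized counts were tested on log2(value + 1) with limma 3.58.1 in R 4.3.3 (trend, two-sided, Benjamini-Hochberg over 17005 genes), which understates changes of low genes. Calls needed an adjusted p under 0.05 and a fold above 2. Shares and sums were tested with exact permutation tests in Python 3.11.15 with scipy 1.17.1 and numpy 2.4.6. Names, coordinates and transcripts came from GENCODE 29, which named 57447 of 58051 genes, and promoters from RefSeq. Scripts were tested on simulated data. The genes and lists were chosen with earlier results of these data known. Named were all 9 genes, up to 3 called genes in each direction with the largest change per list, the 3 most correlated genes, overlapping genes and up to 2 neighbours. Some genes that this rule would name are not reported here. Any other gene was picked once its values had been seen. The labelled cell line gave each sample its group, and no column was unassigned.

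Alternatives were pseudocounts of 0.5 and 5, no minimum and a minimum of 50, equal totals, TMM, robust limma, a replicate block, leaving out each sample, edgeR 4.0.16 and DESeq2 1.42.0 on the recovered reads, and other denominators and lengths for shares.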

Additional observations from a re-analysis of the deposited data

How the results depend on the processing

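The 328 alternatives include counts of genes, which have no sign. Among the differences, a sign changed only where TUBB2B alone stood in for the sum of TUBB2A and TUBB2B. For single genes of the 9, the adjusted p of the fold change crossed to under 0.05 in 6 alternatives and to over it in 4. A minimum mean of 50 left 2955 genes called (1400 higher and 1555 lower, against 2245 and 2443) and 1 gene of the 9 described, since TUBB2B and TUBB1 then went untested, and with no minimum 3512 genes were higher and 7007 were called in all. edgeR called 4748 genes (4660 of them shared) and DESeq2 4694 (4649 shared), and both called TUBB2A and TUBB2B alone among the 9. Leaving out 1 sample gave 4637 to 4742 called genes (2121 to 2342 higher and 2328 to 2516 lower), 2 to 3 called and 5 to 7 at an adjusted p under 0.05 among the 9, a total beta-tubulin difference of -12.6% to -8.91%, and a summed TUBB2A and TUBB2B difference of 208 to 240 normalized counts. That difference was 299 for TUBB2A alone and -79.6 for TUBB2B alone. Per kilobase of exon the share of the pair differed by 0.836 percentage points, against 0.453. Equal totals added TUBB3 to the calls.

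Same-numbered samples deviated together little (correlations 0.004, -0.016 and 0.077), and whether the numbers pair them is not settled. A replicate block gave 4690 called genes, 2 of the 9 among them. At an adjusted p under 0.05 in limma and any fold it gave 12463 genes, against 12210 without the block. The standard error fell for every tested gene of the 9, for TUBB from 0.044 to 0.035 and for STMN1 from 0.041 to 0.034.

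Depth limits TUBB1 and TUBB3, with 41 and 18 reads in A2780, and TUBB2B in A2780-ADR, with 3.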
